A study of Mus musculus with 6 samples.

Results

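The expression of 8 claudins, proteins of the tight junction, was read in crypts of mouse small intestine where the array had a probe: Cldn1, Cldn2, Cldn3, Cldn4, Cldn5, Cldn7, Cldn8 and Cldn15. They were chosen by name. Their probes were found by mapping the gene accession of every non-control array feature to a gene symbol. By this rule 7 of the 8 genes had a probe, and 8 probes represented them, out of 41006 probes and 12340 named genes on the array. Cldn7 had 2 probes and the other 6 had 1 each, while Cldn1 was not matched to a probe and was not analysed here. Of the 7 measured genes, 2 were pore-forming (Cldn2, Cldn15) and 5 were taken as sealing (Cldn3, Cldn4, Cldn5, Cldn7, Cldn8).

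Claudins are the membrane proteins that set how tight the tight junction is, the seal that joins neighbouring epithelial cells near their apical side. Their outer loops meet between cells and form either a barrier or a charge-selective pore, and the mix of claudins in a cell layer sets which ions and how much water leak between its cells. Claudin-2 (Cldn2) and claudin-15 (Cldn15) form cation pores in the gut, through which sodium returns to the lumen to be used in nutrient uptake, and mice without claudin-15 develop an enlarged small intestine. Claudins 1, 3, 4, 5 and 8 are mostly barrier formers, while claudin-7 is placed with them here although its class is debated.

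The study asked how loss of imprinting (LOI) of Igf2, a growth factor gene normally read from the paternal copy only, alters gene expression in the intestinal progenitor compartment. The LOI(+) group held 3 mice that received from an H19+/- mother a chromosome lacking H19 and the differentially methylated region upstream of it. The LOI(-) group held 3 wild-type mice from such crosses. Both groups were on a C57BL/6 background and 120 days old, and crypts were cut from the middle small intestine by laser microdissection. The deletion was inherited, so it was not restricted to crypt cells, and it removes H19 itself along with the control of Igf2. The sex label read male for 2 mice of each group and was not given for 1 mouse of each group.

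Crypt RNA of 1 mouse was labelled with Cy3 on each of the 6 arrays and hybridised with Cy5-labelled Universal Mouse Reference RNA, pooled from cultured cell lines. Values are the log2 ratio of Cy3 over Cy5 after background correction and loess normalization. On that scale a value of 1 is a level 2 times that of the reference for the same probe. Without a dye swap, the dye effect of a probe cannot be told apart from its crypt to reference ratio, and ratios of different probes were not ranked against each other. Median Cy3 signals of 546 to 594 stood over local backgrounds of 387 to 391, and 314 negative control features had a 95th percentile of 439 to 449. Of 48 claudin spots, 0 were saturated and 0 were marked as outliers. All 8 measured general epithelial markers, among them Cdh1, Vil1 and Epcam, were above the negative controls on every array, as were 7 of 7 crypt stem cell and 10 of 10 Paneth cell markers. Most probes passed this level, 39201 of 41006 on 3 or more arrays, so these counts do not identify a cell type. Igf2 differed by -0.0024 ± 0.058 (log2, SE) between the groups and no H19 probe was matched, so the targeted genes gave no check of the labels. Of the 6 arrays, LOI(+) 2 had the lowest mean correlation with the others (0.948, against up to 0.963) and the most features marked as outliers, 146.

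No claudin of either class passed the test between LOI(+) and LOI(-) crypts. The mean differences were small for most members, and the clearest was in Cldn15, at 1.38-fold higher in LOI(+). In limma, 0 of the 8 claudin probes passed an adjusted p of 0.05 (Benjamini-Hochberg over all probes), against 0% of the 41006 probes tested. At an unadjusted p under 0.05, limma picked 1 of the 7 claudins, Cldn15, and 2507 of all probes, or 6.11%. With LOI(+) higher the share of all probes at that unadjusted level was 3.82%, and with LOI(+) lower it was 2.3%. A single claudin among 7 is close to that background. Every LOI(+) array lay beyond every LOI(-) array for 2 of the 7 claudins, Cldn2 and Cldn15, both higher in LOI(+). Over all probes such a gap was found in 11.3%, with LOI(+) higher in 6.28% and lower in 5.06%. The mean difference was above 0 for 4 claudins and below 0 for 3, against 51% above 0 over all probes, whose median difference was 0.0023.

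**Figure D1:**
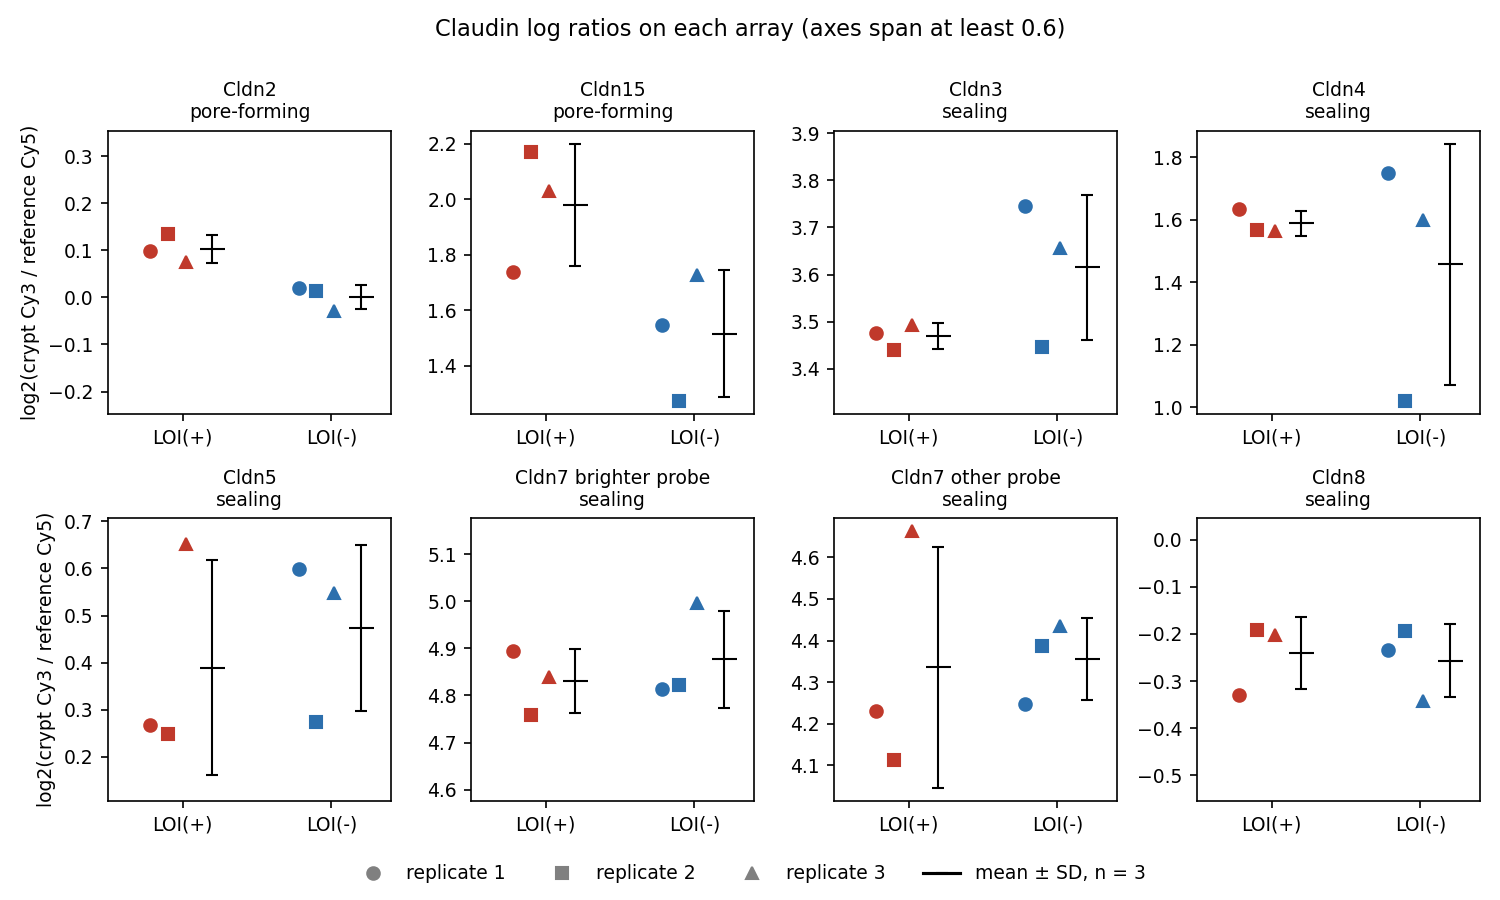
Log2 ratio of crypt Cy3 over reference Cy5 for each claudin probe on each array, LOI(+) in red and LOI(-) in blue, with the marker shape giving the replicate and black bars the mean ± SD of 3 mice. The LOI(+) points lie above all LOI(-) points for Cldn2 and Cldn15 and overlap them in the other 6 panels, and each panel has its own axis range.

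Among the measured claudins Cldn15 carried the largest difference. Its log2 ratios were 1.74, 2.17 and 2.03 in LOI(+) crypts, against 1.55, 1.27 and 1.73 in LOI(-) crypts. The groups did not overlap, though the lowest LOI(+) array, replicate 1, and the highest LOI(-) array, replicate 3, were nearly level. Cldn15 thus averaged 1.98 ± 0.22 in LOI(+) and 1.52 ± 0.23 in LOI(-) (SD, n = 3 each), levels 3.94 times and 2.86 times that of the reference RNA. The difference was 0.46 ± 0.15 (SE) with a 95% interval from 0.12 to 0.81, or 1.08-fold to 1.75-fold. Its unadjusted p in limma was 0.0161 and its adjusted p 0.808. That adjusted p was the smallest of any probe, but it was a tie. Probes of smaller unadjusted p in limma shared it, such as that of Cftr (0.00485). Of all probes, 0.968% had a larger absolute difference. With all 20 ways of splitting the arrays 3 against 3, a two-sided exact permutation test gave a p of 0.1, the smallest this design allows.

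The raw Cy3 signal of Cldn15 did not separate the groups by itself, while its ratio to Cy5 did so before any correction. Its Cy3 signals were 832, 1014 and 843 in LOI(+) crypts, against 841, 658 and 795 in LOI(-) crypts. Only LOI(+) 2 stood clearly above the LOI(-) arrays, and LOI(-) 2 stood below all others. The Cy5 signals of the same spots lay between 541 and 575 on LOI(+) arrays and between 554 and 585 on LOI(-) arrays, a narrow range in both groups. The uncorrected Cy3 over Cy5 ratio was 1.49, 1.76 and 1.56 in LOI(+) crypts, against 1.44, 1.19 and 1.40 in LOI(-) crypts, with no overlap. Leaving out single arrays moved the difference between 0.34 (without LOI(-) 2) and 0.58 (without LOI(+) 1). Under 16 of 17 alternative settings the unadjusted p in limma stayed under 0.05, the exception being the fit without LOI(+) 2, with a difference of 0.37, an unadjusted p of 0.0515 and an adjusted p of 1.00. The adjusted p in limma ranged from 0.525 to 1.00 over those settings. In RNA of bulk crypts, fewer cells of a type and less RNA per cell cannot be told apart.

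Claudin-15 lies in the cells of crypt and villus alike, so markers of villus enterocytes, the absorptive cells above the crypt, were read beside it. Of 19 such genes, 12 had a probe, and 8 had a higher and 4 a lower mean in LOI(+), with 0 past the adjusted test and 3 at an unadjusted p under 0.05 (2 higher, 1 lower), against 6.11% of all probes (3.82% higher, 2.3% lower). The summed level of the list, as its mean centred log2 ratio per array, was 0.11, 0.060 and 0.051 in LOI(+) crypts, against -0.34, 0.058 and 0.066 in LOI(-) crypts. Only LOI(-) 1 stood apart in that list, and Cldn15 was lowest on LOI(-) 2. The 3 list genes at an unadjusted p under 0.05 in limma were Apoc3 (0.58) and Dpp4 (0.33), higher, and Krt20 (-0.20), lower. All 12 markers were above the negative controls on every array. The part of these markers in the Cldn15 difference was not tested.

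Cldn2, the pore former best known from the crypt base, was dim in both channels, so its ratio says little about its level against the reference. Its log2 ratios were 0.099, 0.13 and 0.075 in LOI(+) crypts, against 0.019, 0.013 and -0.028 in LOI(-) crypts. All 3 LOI(+) arrays were above all 3 LOI(-) arrays, and both groups were tightly spaced. It averaged 0.10 ± 0.030 in LOI(+) and 0.0014 ± 0.026 in LOI(-) (SD, n = 3 each). The difference was 0.10 ± 0.053 (SE), or 1.07-fold, with a 95% interval from -0.023 to 0.23 and an adjusted p of 0.823 in limma. The exact permutation p was again 0.1. Its Cy3 signals ran from 476 to 496 in LOI(+) and from 469 to 491 in LOI(-), which was only 1.05 to 1.12 times the 95th percentile of the negative controls. The Cy5 signals of these spots ran from 447 to 476 in LOI(+) and from 449 to 467 in LOI(-), over local backgrounds of 369 to 373. The uncorrected Cy3 over Cy5 ratio was 1.08, 1.04 and 1.03 in LOI(+) crypts, against 1.05, 1.04 and 1.04 in LOI(-) crypts. Neither the raw Cy3 signals nor these ratios separated the groups, and with each array centred on its median in place of the loess fit the difference was 0.025.

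The probe sequence is shown because the whole Cldn2 value rests on this one 60-base oligonucleotide, whose signal lay just over the background.
Cldn2 probe: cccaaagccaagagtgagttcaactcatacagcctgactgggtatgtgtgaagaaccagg
Of its bases 50% were G or C.

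The stretches of 250 bases upstream of the annotated starts of both pore formers are given next, since these were the 2 claudins whose arrays separated. They come from RefSeq on build GRCm38.p6, at chrX:139800558-139800807 for Cldn2 and chr5:136967619-136967868 for Cldn15, each on the plus strand. Capitals mark the searched motif found there, the TATA box letters TATAAA in Cldn2 and the GC box letters GGGCGG in Cldn15.
Cldn2 upstream: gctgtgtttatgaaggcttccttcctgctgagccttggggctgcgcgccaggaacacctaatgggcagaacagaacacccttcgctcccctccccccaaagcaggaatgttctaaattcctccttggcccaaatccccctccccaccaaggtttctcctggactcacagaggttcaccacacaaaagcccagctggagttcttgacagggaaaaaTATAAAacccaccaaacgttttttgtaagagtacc
Cldn15 upstream: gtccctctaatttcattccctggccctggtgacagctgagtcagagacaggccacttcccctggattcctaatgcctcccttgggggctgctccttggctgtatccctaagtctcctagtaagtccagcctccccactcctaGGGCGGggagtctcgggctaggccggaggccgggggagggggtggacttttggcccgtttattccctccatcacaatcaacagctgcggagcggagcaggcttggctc
The TATAAA of Cldn2 began 35 bases before the start, a spacing usual for a TATA box, and GGGCGG of Cldn15 began 108 bases before it. The window of Cldn2 was 52% G or C with 4 CpG dinucleotides, and that of Cldn15 was 60.8% G or C with 7. On both strands of 32851 mouse windows of this length, TATAAA occurred in 12.4% and GGGCGG in 32.7%. The letters TTTATNG of the CDX factors (in 9.81% of windows), CAAAGTCCA of HNF4 (0.384%) and AGATAA of the GATA factors (9.99%), regulators of gut epithelium, were in neither window. No searched motif was shared by both windows. On one strand or the other, GGGCGG was also upstream of Cldn1, Cldn3, Cldn4, Cldn5 and Cldn7, so it was not particular to Cldn15.

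Among the sealing claudins, Cldn3, a main barrier claudin of the gut and a receptor for the enterotoxin of Clostridium perfringens, was strongly above the reference. Its log2 ratios were 3.48, 3.44 and 3.49 in LOI(+) crypts, against 3.75, 3.45 and 3.66 in LOI(-) crypts. The LOI(+) arrays were nearly level, while LOI(-) 2 lay among them and the other 2 LOI(-) arrays lay above. Cldn3 averaged 3.47 ± 0.027 in LOI(+) and 3.62 ± 0.15 in LOI(-) (SD, n = 3 each), 11.1 and 12.3 times the reference. The uncorrected Cy3 over Cy5 ratios were lower, 4.39 to 5.25 in LOI(+) and 3.72 to 5.78 in LOI(-). The fold over the reference therefore depended on the processing. The difference of -0.15 ± 0.084 (SE; 95% interval from -0.35 to 0.053) had an adjusted p of 0.830 in limma, and its sign turned to 0.090 when arrays were scaled to equal spread. Without LOI(-) 2 it was -0.23, with an unadjusted p of 0.0126 in limma and an adjusted p of 0.967, and with the Cy3 channel alone it was -0.31.

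Cldn4, which binds the same enterotoxin and restricts sodium passage, did not separate the groups. Its log2 ratios were 1.63, 1.57 and 1.56 in LOI(+) crypts, against 1.75, 1.02 and 1.60 in LOI(-) crypts. One array, LOI(-) 2, lay far below the other 5. The Cldn4 spots were dim, with Cy3 signals 1.31 to 1.91 times the 95th percentile of the negative controls. The difference was 0.13 ± 0.18 (SE; 95% interval from -0.29 to 0.55; adjusted p 0.915 in limma), and without LOI(-) 2 it was -0.087. Its direction therefore rested on that array, and changes of up to 1.46-fold were within the interval.

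Cldn7 was far above the reference in both groups, and its 2 probes read nearly the same stretch of RNA. It lines the lateral membrane of intestinal cells, and mice lacking it have severe intestinal defects. The probes are shown because they overlap by 56 of 60 bases, in capitals, and so act as repeat readings of one site and not as independent evidence.
Cldn7 brighter probe: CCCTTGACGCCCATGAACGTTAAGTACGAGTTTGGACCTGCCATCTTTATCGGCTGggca
Cldn7 other probe: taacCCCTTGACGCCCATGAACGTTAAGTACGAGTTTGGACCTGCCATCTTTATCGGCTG
The brighter probe gave log2 ratios of 4.89, 4.76 and 4.84 in LOI(+) crypts, against 4.81, 4.82 and 5.00 in LOI(-) crypts. The other probe gave 4.23, 4.11 and 4.66 in LOI(+) crypts, against 4.25, 4.39 and 4.44 in LOI(-) crypts. The groups overlapped on both probes, and LOI(+) 3 was the highest array on the second probe only. On the brighter probe Cldn7 averaged 4.83 ± 0.068 in LOI(+) and 4.88 ± 0.10 in LOI(-) (SD, n = 3 each), 28.4 and 29.4 times the reference. The uncorrected Cy3 over Cy5 ratios of this probe were lower, 9.60 to 11.1 in LOI(+) and 8.37 to 10.8 in LOI(-). With only the local background subtracted they were 11.0 to 14.2 over all arrays, so the fold over the reference depended on the processing. The differences were -0.047 ± 0.073 (SE; 95% interval from -0.22 to 0.13) and -0.020 ± 0.14, with adjusted p of 0.927 and 0.988 in limma. The sign on the brighter probe turned with median centring (0.015) and with scaling to equal spread (0.27).

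The gap between the Cldn7 probes gives a measure of how well 1 site is read. The brighter probe exceeded the other by 0.66, 0.64 and 0.18 on the LOI(+) arrays and by 0.57, 0.44 and 0.56 on the LOI(-) arrays, a mean of 0.51 with an SD of 0.18 over 6 arrays. LOI(+) 3 was the array on which the gap was small.

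Cldn5, the barrier claudin of blood vessel walls, varied within both groups. Its log2 ratios were 0.27, 0.25 and 0.65 in LOI(+) crypts, against 0.60, 0.27 and 0.55 in LOI(-) crypts. LOI(+) 3, LOI(-) 1 and LOI(-) 3 were high and the other 3 arrays were low, a split that crossed the groups. The difference was -0.084 ± 0.13 (SE; 95% interval from -0.40 to 0.23; adjusted p 0.930 in limma). The spots were dim, with Cy3 signals 1.30 to 1.76 times the 95th percentile of the negative controls. With only the local background subtracted, Cy3 over Cy5 was 0.65 to 0.96, below the reference on every array. Whether Cldn5 lay above or below the reference thus depended on the processing. Markers of endothelium were read beside it, with 13 of 16 matched to a probe, 3 higher and 10 lower in LOI(+), and 0 at an unadjusted p under 0.05. Their mean centred log2 ratio was -0.10, -0.018 and 0.070 in LOI(+) crypts, against 0.069, -0.070 and 0.053 in LOI(-) crypts. This mean was positive on the same 3 arrays on which Cldn5 was high. So were the means of the smooth muscle, goblet cell and Paneth cell marker lists, so the pattern was not particular to endothelium. Of the endothelial markers 11 were above the negative controls on all arrays, among them Pecam1 and Cdh5, while Tie1 was above them on 2 arrays and Tek on 3. Their part in the spread of Cldn5 was not tested.

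Cldn8, a sodium barrier of the distal colon and kidney collecting duct, was at the edge of detection. Its log2 ratios were -0.33, -0.19 and -0.20 in LOI(+) crypts, against -0.23, -0.19 and -0.34 in LOI(-) crypts. The groups overlapped fully, and the spot exceeded the 95th percentile of the negative controls on 4 of 6 arrays, 2 in each group. The difference of 0.016 ± 0.069 (SE; adjusted p 0.978 in limma) is a difference between near-background signals, and it took the other sign with median centring (-0.033) and in the Cy3 channel alone (-0.020).

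**Figure D2:**
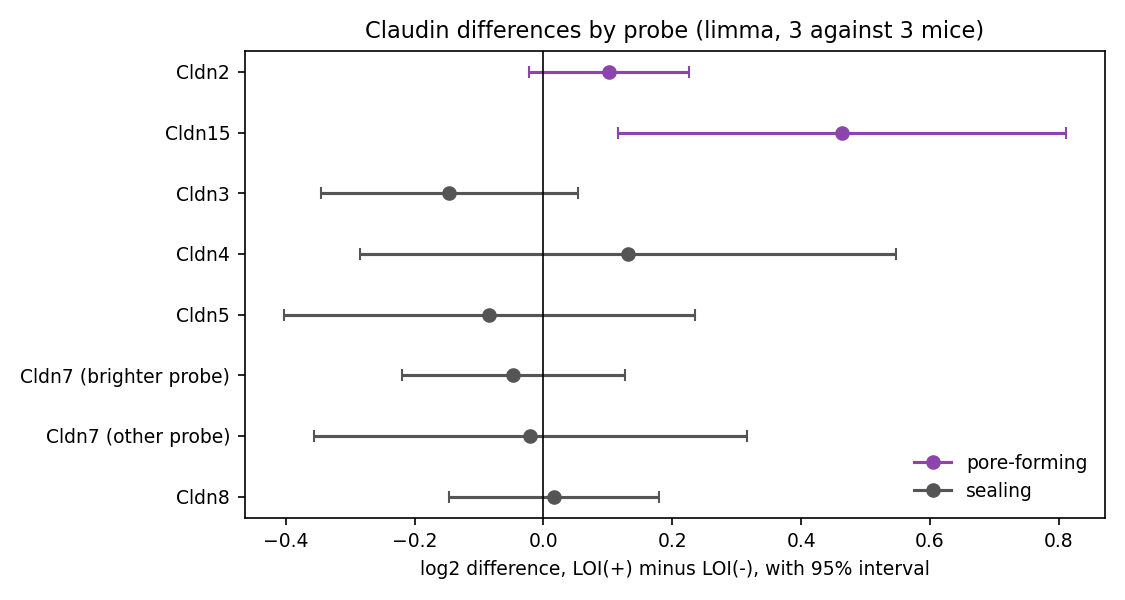
Log2 difference of each claudin probe, LOI(+) minus LOI(-), with its 95% interval from limma (3 mice per group), pore formers in purple and sealing claudins in grey. The interval of Cldn15 alone, 0.12 to 0.81, leaves out 0, before any adjustment for the number of probes tested.

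The rule sets pore formers against sealing claudins, and this contrast was described without a test. Each gene was first centred on its mean over the 6 arrays, so that no gene's level weighed more than another's. The mean of the pore formers was 0.019, 0.25 and 0.15 in LOI(+) crypts, against -0.12, -0.26 and -0.050 in LOI(-) crypts. The mean of the sealing claudins was -0.032, -0.056 and 0.049 in LOI(+) crypts, against 0.11, -0.15 and 0.071 in LOI(-) crypts. Pore formers were thus above 0 on every LOI(+) array and below 0 on every LOI(-) array, while the sealing claudins took both signs in both groups. The pore-forming mean rests on 2 probes, and that of Cldn2 lay near background.

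The pore-forming minus sealing value was 0.051, 0.31 and 0.10 in LOI(+) crypts, against -0.23, -0.11 and -0.12 in LOI(-) crypts. It averaged 0.15 ± 0.14 in LOI(+) and -0.15 ± 0.068 in LOI(-) (SD, n = 3 each), a difference of 0.31. The pore formers accounted for 0.28 of it and the sealing claudins, which differed by -0.026, for the rest. Of the 2 pore formers, Cldn15 gave by far the larger share, since Cldn2 differed by 0.10. Leaving out Cldn7, whose class is debated, gave 0.303, and leaving out Cldn5, mainly a vessel gene, gave 0.294. Over 19 alternatives the difference kept its sign and lay between 0.231 and 0.360. Neither Cldn15 nor Cldn2 was left out in any of them, so the kept sign says little about the class beyond Cldn15.

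**Figure D3:**
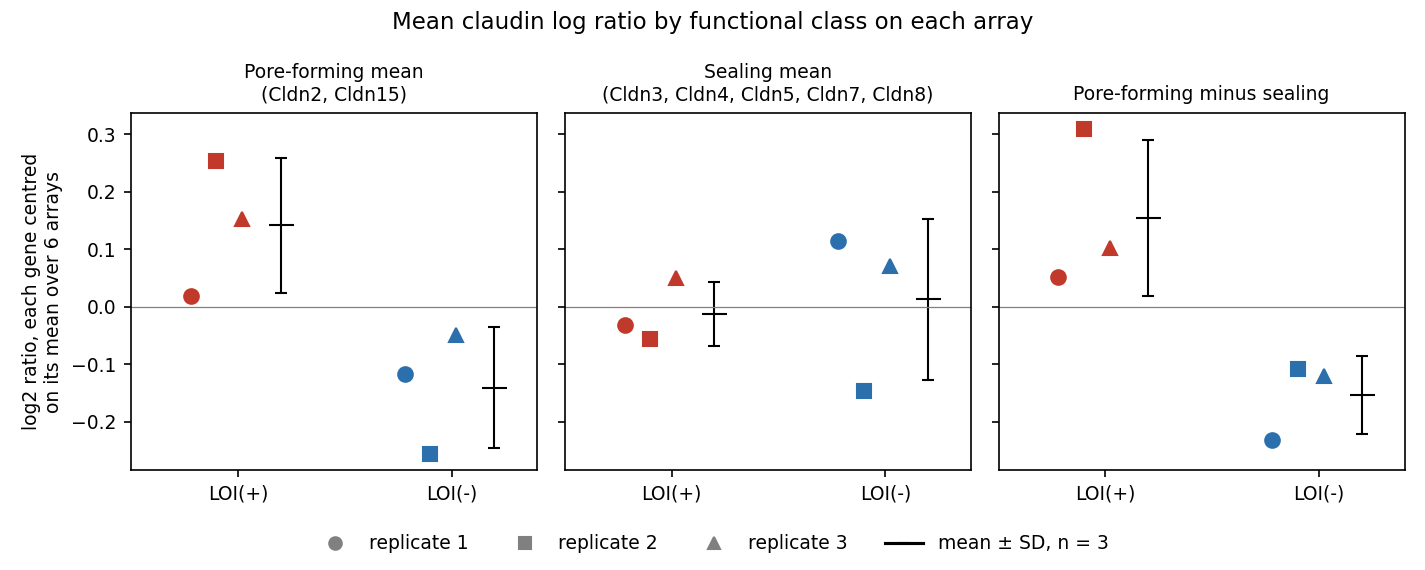
Mean centred log2 ratio of the pore-forming claudins, of the sealing claudins and their difference on each array, LOI(+) in red and LOI(-) in blue, with black bars for the mean ± SD of 3 mice. Pore-forming minus sealing is above 0 on all LOI(+) arrays (0.051 to 0.31) and below 0 on all LOI(-) arrays (-0.23 to -0.11), while the sealing means overlap.

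Single arrays mattered to these values. LOI(-) 2 was the lowest LOI(-) array for 4 of the 7 claudins (Cldn3, Cldn4, Cldn5 and Cldn15). Both its pore-forming mean (-0.26) and its sealing mean (-0.15) were the lowest of all 6 arrays, so its pore-forming minus sealing value was not the lowest.

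**Figure D4:**
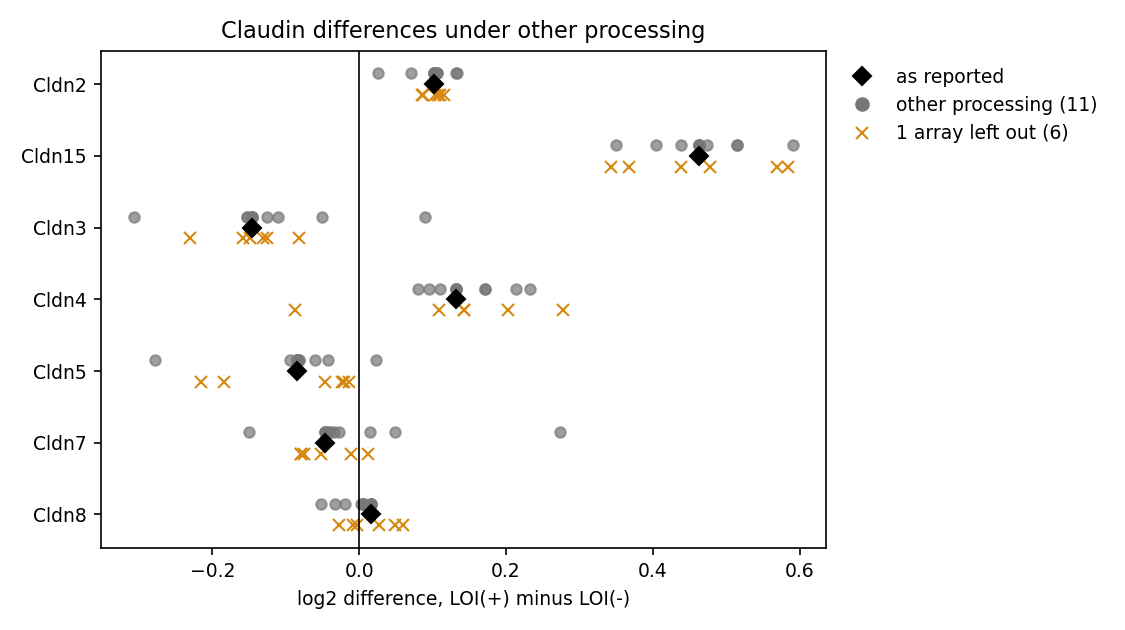
Log2 difference of each claudin, LOI(+) minus LOI(-), as reported (black), under 11 other ways of processing (grey) and with 1 of the 6 arrays left out (orange crosses). Cldn2 and Cldn15 stay above 0 in every setting drawn, and each of the 5 sealing claudins has settings on both sides of 0.

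Claudins are held in place by scaffold proteins and share the junction with other membrane proteins, so 72 further genes of the junction and its surroundings were read in the same fit. Of these, 33 had a higher and 39 a lower mean in LOI(+), with a median difference of -0.027 against 0.0023 over all probes. None passed the adjusted test in limma (smallest adjusted p 0.808), and 8 had an unadjusted p under 0.05, 2 higher and 6 lower, while the groups were apart for 10. Over all probes 6.11% had such an unadjusted p (3.82% higher, 2.3% lower) and 11.3% were apart. The 12 measured of 19 other claudins included 2 higher and 10 lower, with a median of -0.036. The 24 measured of 34 tight junction proteins split into 12 higher and 12 lower, with a median of -0.011. The 18 measured of 19 adherens junction genes and partners split into 12 higher and 6 lower (median 0.021), the 12 measured of 16 transcription factors and receptors that regulate claudins into 3 higher and 9 lower (median -0.12), and the 6 measured of 9 ion and nutrient transport genes into 4 higher and 2 lower (median 0.062).

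**Figure D5:**
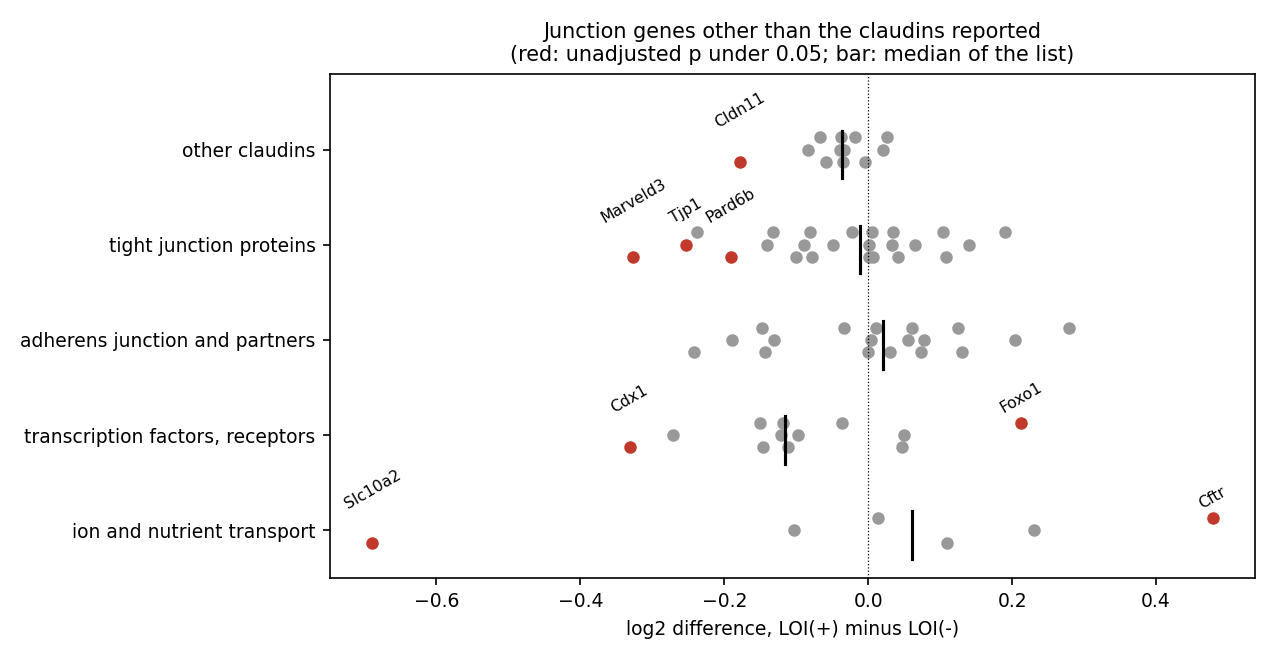
Log2 difference, LOI(+) minus LOI(-), of 72 genes of the junction and its surroundings in 5 lists, 1 point per gene, with the list median as a black bar. The 8 genes with an unadjusted p under 0.05 are red and named, from Slc10a2 at -0.69 to Cftr at 0.48, and 0 genes passed the adjusted test.

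The scaffolds that anchor claudins gave mixed values. Tjp1 (ZO-1), which ties claudin tails to actin, had log2 ratios of -0.67, -0.75 and -0.55 in LOI(+) crypts, against -0.45, -0.40 and -0.36 in LOI(-) crypts. The groups were apart, with a difference of -0.25 ± 0.069 (SE), an unadjusted p of 0.00813 and an adjusted p of 0.808 in limma. Its relative Tjp3 differed by 0.00051 ± 0.072, with overlapping arrays. Pard6b, of the polarity complex that places the junction, differed by -0.19 ± 0.071, again with the groups apart and an adjusted p of 0.808. Cgn (cingulin) was not matched to a probe.

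The other membrane proteins of the junction also stayed short of the test. Marveld3, a relative of occludin, had log2 ratios of 1.96, 2.20 and 2.17 in LOI(+) crypts, against 2.61, 2.33 and 2.37 in LOI(-) crypts, so every LOI(+) array was below every LOI(-) array. Its difference was -0.33 ± 0.10 (SE; adjusted p 0.808 in limma). Under other settings it lay between -0.41 (mice labelled male alone) and -0.071 (Cy3 channel alone). Ocln (occludin) differed by -0.022 ± 0.25, F11r (junctional adhesion molecule A) by 0.0019 ± 0.090 and Marveld2 (tricellulin) by -0.10 ± 0.088. Epcam, which binds and stabilises claudin-7, differed by -0.14 ± 0.11 on its brighter probe and by 0.057 ± 0.056 on its other probe, so its probes disagreed in sign. Cldn11, known from myelin and the testis, differed by -0.18 ± 0.060 with the groups apart on one probe, and by -0.028 ± 0.086 on a second probe that was above the negative controls on only 2 arrays.

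Regulators and transport partners held the widest values. Cdx1, an intestinal transcription factor, had log2 ratios of 0.81, 0.64 and 0.59 in LOI(+) crypts, against 0.83, 1.01 and 1.19 in LOI(-) crypts, a difference of -0.33 ± 0.10 (SE) with LOI(+) 1 nearly level with LOI(-) 1. Foxo1, which represses Cldn5 in endothelium, differed by 0.21 ± 0.081 with overlapping arrays. Cftr, the chloride channel that drives crypt fluid secretion, had log2 ratios of 4.66, 4.96 and 5.07 in LOI(+) crypts, against 4.31, 4.39 and 4.55 in LOI(-) crypts, and differed by 0.48 ± 0.12. The groups were apart for Cftr, by a margin wider than for Cldn15. Under other settings the Cftr difference lay between 0.24 (Cy3 channel alone) and 0.80 (scaling to equal spread). Slc10a2, the bile acid carrier of the distal small intestine, had log2 ratios of 0.091, 0.14 and 0.17 in LOI(+) crypts, against 1.29, 0.54 and 0.64 in LOI(-) crypts. Its difference of -0.69 ± 0.18 rested in part on LOI(-) 1, without which it was -0.46. All 4 genes had an adjusted p of 0.808 in limma, with unadjusted p from 0.00485 to 0.0333.

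For 3 claudins the named genes most alike over the 6 arrays were listed, by Pearson correlation of log2 ratios among 12257 genes, as a description of points that share arrays and dyes. For Cldn15 these were Spag5 (r = 0.996), Ppp4r3b (0.995) and Snrpa (0.995), and 552 genes had an r over 0.9. For Cldn2 they were Olfr1164 (0.990), Fmo4 (0.989) and Adam21 (0.989), with 93 genes over 0.9. For Cldn4, whose pattern was the low LOI(-) 2 array, they were Cd3d (0.994), Rpl24 (0.992) and Gnl1 (0.985), with 70 genes over 0.9. Over 6 arrays such values are reached by many genes, and Cldn15 shared its pattern with more of them than Cldn2 or Cldn4.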

How the data were processed

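Crypt RNA of 6 mice was measured on 1 array each. Both channels' spot intensity values were deposited by the authors, per the file headers as scanned by Agilent Feature Extraction, as unnormalized mean signal and median local background. A deposited table of log10 values, used as an alternative, matched the scanner's processed ratios on each array (r of at least 0.998 over 41174 features). Which test the authors used is not stated in the sources used here.

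Each array held 43430 features, 41034 of them not controls. Gene symbols came from a RefSeq table of GRCm38.p6 and named 15406 probes (37.6%). Signals were corrected with normexp (offset 50) and loess in limma 3.58.1 (R 4.3.3). Groups were compared with lmFit and eBayes, two-sided, over 41006 probes with Benjamini-Hochberg adjustment at 0.05. The median SE of a difference was 0.078, and having 6 arrays limits precision. Per the labels, each array is a different mouse. Where a gene had 2 probes, the one of higher mean Cy3 signal was used in counts.

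The claudins and gene lists were chosen with earlier results of these data known. All claudins, the list genes at an unadjusted p under 0.05 (up to 4 per list) and 8 fixed junction genes were to be named, of which 1 is not reported here. The fit was tested on simulated data. Alternatives covered background, normalization, channel, filters, probes, replicate block, sex label and each array left out. Image extraction ran LOI(-) first on 1 day, so order and group cannot be told apart. Cldn1 was not analysed here.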

Additional observations from a re-analysis of the deposited data

How the results depend on the processing

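With 3 mice per group, differences of the size of the claudin SEs were not detectable. The signals of Cldn2 and Cldn8 lay near background, so their small SEs (0.053 and 0.069) do not show that their RNA was unchanged. Under all 17 alternatives 0 probes, 0 claudins and 0 junction genes passed an adjusted p of 0.05 in limma, while the number of probes at an unadjusted p under 0.05 lay between 1604 (without LOI(+) 2) and 3596 (without LOI(+) 1), against 2507. The pore-forming minus sealing difference lay between 0.231 and 0.360 with single arrays left out and between 0.232 and 0.359 otherwise. Of 357 recomputed differences of 21 genes, 324 kept their sign. The others took the opposite sign, and the cause was not tested. Median centring gave 0.015 for Cldn7, -0.033 for Cldn8 and 0.00021 for Ocln. Scaling to equal spread gave 0.090 for Cldn3, 0.27 for Cldn7, 0.10 for Ocln, 0.044 for Marveld2 and 0.059 for Epcam. Quantile normalization gave -0.065 for F11r. The Cy3 channel alone gave -0.020 for Cldn8 and -0.058 for Tjp3. Agilent's processed signals and the deposited log10 table both gave 0.055 for Ocln. The mice labelled male alone gave 0.023 for Cldn5, 0.048 for Cldn7, -0.052 for Cldn8, 0.36 for Ocln, -0.016 for Tjp3, -0.041 for F11r, 0.0023 for Marveld2 and 0.042 for Epcam. With single arrays left out, differences ranged from -0.087 to 0.28 for Cldn4, -0.079 to 0.012 for Cldn7, -0.027 to 0.060 for Cldn8, -0.26 to 0.23 for Ocln, -0.042 to 0.053 for Tjp3 and -0.070 to 0.051 for F11r. Deviations of same-numbered mice correlated at -0.084, -0.25 and 0.35, and those of other pairs at -0.40 to 0.46. These values showed no pairing by number, but 3 mice per group are too few to exclude it. With the replicate number as a block, 0 probes passed and 2619 had an unadjusted p under 0.05. In that replicate block fit Cldn15 differed by 0.46 (adjusted p 0.747 in limma) and the pore-forming minus sealing difference was 0.31.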

Other observations

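Further cell type lists were read in the same fit, and 0 of their genes passed the adjusted test in limma. Over all probes, 2.3% had a lower mean in LOI(+) at an unadjusted p under 0.05, and the difference was above 0 for 51%. All 8 measured goblet cell markers (of 10) had a lower mean in LOI(+), 2 of them at an unadjusted p under 0.05, with a list mean between -0.16 and 0.025 on LOI(+) arrays and between -0.075 and 0.19 on LOI(-) arrays. Of the 8 general epithelial markers 7 were lower in LOI(+), 2 of them (Cdx1 and Krt8, the second named after its value was seen) at an unadjusted p under 0.05, with list means of -0.16 to -0.068 on LOI(+) arrays against -0.0022 to 0.23 on LOI(-) arrays, and their median difference was -0.16 while that of the sealing claudins was -0.047. Crypt stem cell markers (7 of 13 measured) split into 4 higher and 3 lower, Paneth cell markers (10 of 14) into 4 higher and 6 lower and M cell markers (9 of 11) into 5 higher and 4 lower. Smooth muscle markers (8 of 11) split into 3 higher and 5 lower, 2 of these at an unadjusted p under 0.05, and colon or distal gut markers (8 of 12) into 2 higher and 6 lower, with a median difference of -0.085. The colon or distal list mean was -0.10, 0.0042 and -0.16 on LOI(+) arrays, against 0.22, -0.16 and 0.21 on LOI(-) arrays. Its largest difference was that of Fabp6, -0.83, with log2 ratios of 1.80, -0.069 and 0.65 on LOI(-) arrays. Whether the sampled stretch of gut differed between arrays was not tested. The part of any of these lists in the claudin values was not tested.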
